A study of Mus musculus with 2 samples.

Results

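The collagen chain genes are the genes whose products wind into the triple helices of the collagens. They were taken as all rows of the deposited count matrices whose whole symbol reads Col, a number, a, and a number, which gave 44 of 55357 genes. Of these, 11 encode fibrillar chains, 6 encode the type IV chains of basement membranes, and 27 encode other chains. The data came from 4T1 tumours, grown from a mouse triple-negative mammary carcinoma line, in BALB/c mice. In the group labelled AptCD4-LNT, mice received 3 doses of cells (5, then 4, then 3 times 1000000 cells) at intervals of 3 days, and tissue was taken on day 9, whereas the mice of the group labelled Untreated received PBS. Each group was 1 droplet single-cell RNA library made from 3 tumours mixed together, so the spread between mice cannot be seen and no test was possible.

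Collagens are the main structural proteins of the extracellular matrix. Chains are made in the endoplasmic reticulum, where prolines and lysines are hydroxylated and chaperones guide the folding of the helix. They are then secreted, trimmed and cross-linked. Fibrillar collagens (types I, III and V among them) form the cables of connective tissue, and fibroblasts are known as their main source in tumours. Type IV collagen forms the sheet-like network of basement membranes under epithelia and around vessels. Other chains decorate fibrils (types XII and XIV), form beaded filaments (type VI), anchor epithelium to the tissue below it (type VII) or sit in vessel basement membranes (types XV and XVIII).

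The AptCD4-LNT library held 8931 barcodes with a median of 8612 unique molecular identifiers (UMIs, each 1 captured RNA molecule), and the Untreated library held 20040 barcodes with a median of 4640.5. After filters, 8627 and 18216 cells remained. The labels tag the material as tumour cells, but markers of many classes were found. There were 3733 and 9340 epithelial-like cells (AptCD4-LNT first, here and below), 798 and 444 fibroblast-like cells, 50 and 78 pericyte-like cells, and 58 and 155 endothelial-like cells. The libraries shared 42 barcodes, and leaving these out moved none of the collagen summaries that could be recomputed. Levels are given as UMIs per 1000000 UMIs of the class (CPM). A UMI counts a molecule once, so levels were not divided by gene length. A ratio is the AptCD4-LNT level over the Untreated level, and its range is an exact 95% interval that covers counting error only. Chains with at least 20 UMIs in a class were compared, and a difference of at least 1.5-fold was counted as past the fold. A chain's background was read in Ptprc-positive cells of the haematopoietic classes (2725 and 4403 cells), since Ptprc encodes the leukocyte antigen CD45 and leukocytes are not the usual source of fibrillar collagen.

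Collagen message was concentrated in the fibroblast-like cells. Collagen chains made up 9.17% and 8.44% of all UMIs in these cells, against 1.15% and 0.390% of the UMIs of the whole libraries. Fibroblast-like cells held 85.0% of the collagen UMIs in the AptCD4-LNT library and 60.7% in the Untreated library. A further 5.65% and 18.8% lay in 49 and 283 cells of the fibroblast clusters that could not be named, because their leading genes were markers of another class or their fibroblast markers were low. Epithelial-like cells, the most numerous class, held 7.08% and 16.1%. Summed over all chains, the level of fibroblast-like cells was 158 and 265 times that of the Ptprc-positive control cells. Pericyte-like cells held 0.915% and 1.30%, and endothelial-like cells 0.587% and 1.32%. The share of fibroblast-like cells differed between the libraries, so the library totals do not show a difference per cell.

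Of the 44 chains, 36 had at least 20 UMIs over both libraries. The cartilage chain Col9a1 had 0 UMIs, where a count of 0 allows up to 3. The 7 chains with 1 to 19 UMIs were Col22a1 (1), Col4a3 (2), Col19a1 (3), Col9a2 (3), Col26a1 (7), Col6a4 (9) and Col2a1 (10), the last a cartilage collagen. For 28 of the 36 chains the class with the highest level was the same in both libraries. It was the fibroblast-like class for 22 chains, the endothelial-like class for 5 (Col4a1, Col4a2, Col13a1, Col15a1 and Col18a1) and the epithelial-like class for Col4a5. The make-up of the collagen message differed by class. Fibrillar chains made up 92.2% and 90.7% of collagen UMIs in fibroblast-like cells and 57.5% and 61.9% in pericyte-like cells. Type IV chains made up 57.5% and 78.2% in endothelial-like cells, and the lower AptCD4-LNT share goes with 1 barcode rich in fibrillar message.

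**Figure D1:**
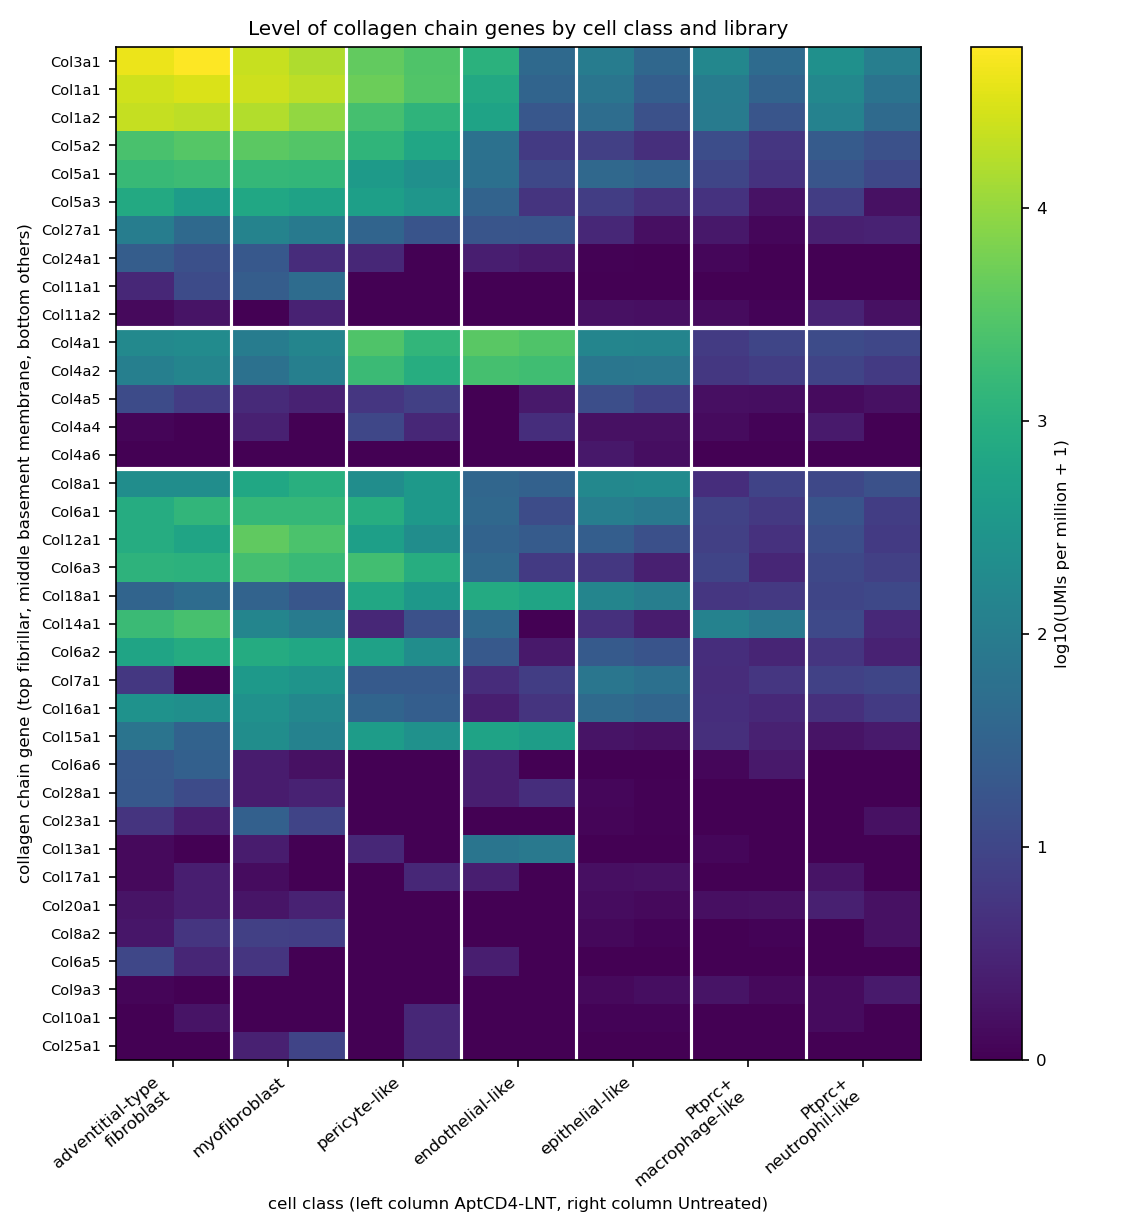
Level of each collagen chain, as log10 of CPM with 1 added, in the cell classes of the AptCD4-LNT and Untreated libraries, 1 library each. Fibroblast-like cells hold the highest levels of most fibrillar chains, and endothelial-like cells those of Col4a1 and Col4a2.

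In fibroblast-like cells the most abundant chains were the type III chain Col3a1 and the type I chains Col1a1 and Col1a2. The Col3a1 level was 34918 CPM in the AptCD4-LNT library and 33673 CPM in the Untreated library. Col1a1 lay at 24888 and 23795 CPM. Both were close between the libraries, with ratios of 1.04 (1.03 to 1.04) for Col3a1 and 1.05 (1.04 to 1.05) for Col1a1. The Col1a2 level was 19560 against 13776 CPM, a ratio of 1.42 (1.40 to 1.44). The partners of the type I trimer were therefore counted in unequal proportion, with 1.27 Col1a1 UMIs per Col1a2 UMI in the AptCD4-LNT library and 1.73 in the Untreated library. In pericyte-like cells the proportions were 2.20 (2.04 to 2.38) and 2.36 (2.13 to 2.62), a difference within the intervals.

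The sequences upstream of Col1a2 and Col3a1 are shown because these abundant fibrillar chains differed in how they varied between the libraries and fibroblast states. They are the 250 bases before the annotated start, 5′ to 3′ on the gene's strand, from RefSeq on GRCm38.p6, which is not the build of the count matrices. Col1a2 (chr6:4505368-4505617, plus strand) held CCAAT once and GGGCGG 2 times, and Col3a1 (chr1:45311288-45311537, plus strand) held TATAAA once. Capitals mark those motifs, searched on both strands.
Col1a2: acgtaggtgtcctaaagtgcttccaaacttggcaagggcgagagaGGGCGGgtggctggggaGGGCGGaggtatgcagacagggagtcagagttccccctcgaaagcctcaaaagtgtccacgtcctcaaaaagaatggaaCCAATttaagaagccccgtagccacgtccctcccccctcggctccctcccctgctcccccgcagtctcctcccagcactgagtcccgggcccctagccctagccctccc
Col3a1: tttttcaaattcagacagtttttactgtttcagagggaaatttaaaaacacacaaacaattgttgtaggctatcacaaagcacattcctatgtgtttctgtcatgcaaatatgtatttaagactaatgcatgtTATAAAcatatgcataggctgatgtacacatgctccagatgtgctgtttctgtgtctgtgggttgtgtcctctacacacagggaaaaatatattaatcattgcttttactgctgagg
The motifs do not overlap each other here. TATAAA lay 117 bases before the Col3a1 start, and CCAAT lay 109 bases before the Col1a2 start. Windows were found for 35 of the 44 chains. Of these 35, 14.3% held TATAAA, 34.3% held CCAAT and 60% held GGGCGG, against 13%, 34.5% and 32.9% of all 27025 windows. A match describes the letters only.

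Of 27 chains compared in fibroblast-like cells, 5 were at least 1.5-fold higher in the AptCD4-LNT library, against 12.1% of all genes compared, and 4 were lower, against 11.3%. The median log2 ratio of the 27 chains was 0.05, beside 0.01 for all genes. Summed over all chains the collagen level was 91662 against 84378 CPM, a ratio of 1.09 (1.08 to 1.09). None of the higher chains was among the abundant ones. Col6a5, a less common type VI chain, had 72 UMIs against 3 (ratio 7.45, 2.45 to 37.0). The minor fibrillar chain Col24a1 lay at 21.1 against 7.30 CPM (2.89, 1.88 to 4.66), and Col27a1, another minor fibrillar chain, at 111 against 68.5 CPM (1.62, 1.40 to 1.88). Col28a1 lay at 13.8 against 6.35 CPM (2.17, 1.35 to 3.67) and Col4a5 at 8.77 against 4.12 CPM (2.13, 1.18 to 4.15).

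The 4 lower chains included Col11a1, a fibrillar chain that joins type II and type V fibrils, at 9.06 against 31.7 CPM, which was 3.50-fold lower (2.61 to 4.70). The short-chain collagen Col8a1, known from vessel walls and the cornea, was 1.83-fold lower (1.74 to 1.94) at 362 against 663 CPM. The anchoring fibril chain Col7a1 was 1.72-fold lower (1.54 to 1.92) at 90.5 against 156 CPM. Col8a2, the partner of Col8a1, was 2.07-fold lower (1.08 to 3.88) on 28 and 18 UMIs. The type VI trimer moved unevenly. Col6a1 was 1.44-fold lower (1.39 to 1.49) at 1003 against 1440 CPM, Col6a2 lay at 661 against 782 CPM, and Col6a3 at 1418 against 1461 CPM.

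**Figure D2:**
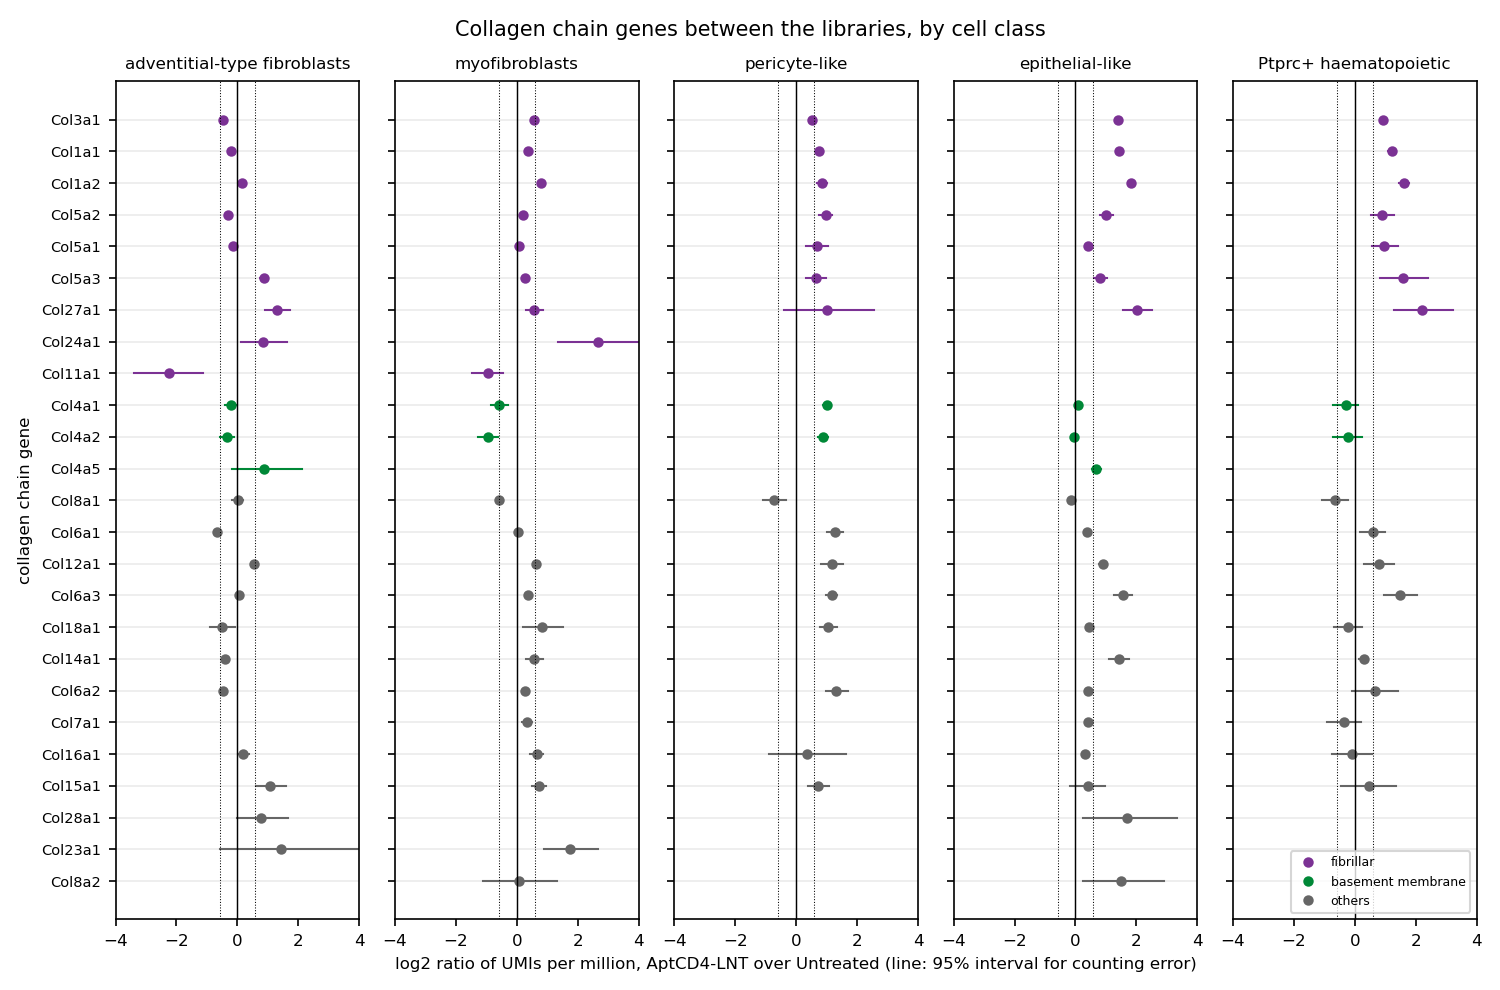
Ratio of the AptCD4-LNT to the Untreated level (log2 scale) of each collagen chain with at least 20 UMIs in a class, with exact 95% intervals for counting error. Lines mark 1.5-fold either way, and most chains of pericyte-like cells lie above the upper line.

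The fibroblast-like class held an adventitial-type state, with Pi16, Dpp4, Cd34 and Dpt as its markers, and a myofibroblast state, with Acta2, Tagln, Lrrc15, Cthrc1 and Postn. Collagen genes were left out of the clustering. The adventitial-type state made up 570 of 798 cells in the AptCD4-LNT library and 200 of 444 in the Untreated library. The myofibroblast state made up 143 and 228 cells. Single chains differed between the states within each library, and the counts are not read as a trait of collagens as a group. Of 22 chains with at least 20 UMIs in both libraries, 3 were at least 1.5-fold higher in the adventitial-type state in both, against 9.69% of all genes. Another 5 were higher in the myofibroblast state in both, against 11.2%.

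Col3a1, Col14a1 and Col6a6 were the adventitial chains. Col14a1, which binds the surface of collagen fibrils, lay at 1773 and 2355 CPM in the adventitial-type state and at 143 and 96.2 CPM in the myofibroblast state. That difference was 12.4-fold (11.1 to 13.9) in the AptCD4-LNT library and 24.5-fold (20.9 to 28.9) in the Untreated library. Col6a6 had 128 and 36 UMIs in the adventitial-type state and 3 and 1 in the myofibroblast state. Col12a1, the relative of Col14a1 known from stressed connective tissue, showed the opposite pattern. It lay at 872 and 593 CPM in the adventitial-type state and at 3949 and 2548 CPM in the myofibroblast state. Counted together, there were 0.492 and 0.252 Col12a1 UMIs per Col14a1 UMI in the adventitial-type state, and 27.6 and 26.5 in the myofibroblast state.

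The other myofibroblast chains were Col7a1, Col8a1, Col11a1 and Col15a1. Most Col7a1 UMIs of the libraries lay in epithelial-like cells (82.1% and 84.4%). Among the fibroblast states, Col7a1 had 844 and 482 UMIs in the myofibroblast state and 31 and 0 in the adventitial-type state. A sub-cluster between the states held 44 and 9. Col7a1 is compared here between the 2 states only. Its level was 75.5-fold (52.8 to 112) higher in the myofibroblast state of the AptCD4-LNT library. In that of the Untreated library it was at least 128-fold higher, with 3 counts as the floor. Col8a1 was 3.16-fold and 4.72-fold higher in the myofibroblast state. Col11a1 was 10.4-fold and 4.19-fold higher on 15 adventitial UMIs in each library, and Col15a1 3.25-fold and 4.14-fold higher. The Col15a1 difference did not hold for all parts of the states. In the AptCD4-LNT library Col15a1 lay at 226 CPM in an adventitial sub-cluster led by Gas6 and Reg3g (74 cells). A myofibroblast sub-cluster led by Mmp10 and Crabp1 (139 cells) had 220 CPM. In the Untreated library the same sub-clusters had 33.9 and 113 CPM. The myofibroblast state held a smaller share of the AptCD4-LNT fibroblast-like cells than of the Untreated ones. Over the whole class Col7a1, Col8a1 and Col11a1 were lower in the AptCD4-LNT library, whereas Col12a1 (1647 against 1638 CPM) and Col15a1 (103 against 90.4 CPM) were not. The part of the state mix was not tested.

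The library ratio differed when each state was taken alone. In the adventitial-type state the summed collagen level was 1.19-fold lower (1.18 to 1.19) in the AptCD4-LNT library, at 100589 against 119406 CPM. In the myofibroblast state it was 1.39-fold higher (1.38 to 1.40), at 80233 against 57589 CPM. Col3a1 lay at 41490 against 57045 CPM in the adventitial-type state (1.38-fold lower, 1.36 to 1.39) and at 22753 against 15467 CPM in the myofibroblast state (ratio 1.47, 1.45 to 1.49). Col7a1, Col6a1, Col6a2 and Col5a2, lower over all fibroblast-like cells, had ratios of 1.27, 1.02, 1.22 and 1.16 in the myofibroblast state. Col8a1 had a ratio of 1.01 in the adventitial-type state.

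Of 26 chains compared in the adventitial-type state, 9 were past the fold upward (16% of all genes) and 2 downward (10.5%). The higher chains included the type V chain Col5a3 at 767 against 421 CPM (1.82, 1.67 to 1.99), Col27a1 (2.47, 1.87 to 3.31) and Col15a1 (2.12, 1.54 to 3.0). Col7a1 counted among them with 31 UMIs against 0, and Col24a1 (1.77) and Col6a5 (4.03) also had intervals above 1. Col4a5, Col28a1 and Col23a1 had intervals that included 1. Col6a1 was 1.58-fold lower (1.5 to 1.67) and Col11a1 4.79-fold lower (2.18 to 10.5). In the myofibroblast state 7 of 23 chains were higher (9.49% of all genes) and 2 were lower (11.6%). They included Col1a2 at 16322 against 9466 CPM (1.72, 1.69 to 1.76), Col12a1 (1.55, 1.49 to 1.61), Col15a1 (1.67, 1.42 to 1.96), Col16a1 (1.58, 1.37 to 1.83) and Col18a1 (1.79, 1.16 to 2.84). The transmembrane collagen Col23a1 had 64 against 14 UMIs (3.32, 1.84 to 6.42) and Col24a1 44 against 5 (6.39, 2.54 to 20.7). Col4a2 was 1.92-fold lower (1.53 to 2.41) and Col11a1 1.94-fold lower (1.36 to 2.79).

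The states were themselves mixtures of smaller clusters that the libraries filled unequally. Within the sub-cluster led by Mmp10 and Crabp1 (139 and 105 cells), Col3a1 had a ratio of 1.03 (1.01 to 1.05) and Col11a1 0.987 (0.553 to 1.86), so the state differences of these genes were not seen there. The adventitial-type difference in Col5a3 was not seen in either sub-cluster of that state that both libraries filled (1.12, 0.949 to 1.32, and 0.893, 0.767 to 1.04). The summed collagen ratio of those adventitial sub-clusters was 1.01 (0.998 to 1.03) in the one led by Dmkn and Efemp1 (426 and 32 cells) and 0.809 (0.802 to 0.815) in the one led by Gas6 and Reg3g (74 and 168 cells). In the sub-cluster led by Mmp10 and Crabp1 it was 1.21 (1.20 to 1.23). A myofibroblast sub-cluster led by Gzme and Iigp1 held 123 Untreated cells and 4 AptCD4-LNT cells. Its Untreated cells had 10388 CPM of Col3a1, 1204 CPM of Col8a1 and 65.3 CPM of Col11a1. A sub-cluster led by Serpinb2 held 70 AptCD4-LNT cells and 0 Untreated cells. It was counted in the adventitial-type state, although its marker level was 8.47 log2 CPM for that state and 8.83 for the myofibroblast state.

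Some differences recurred in the sub-clusters that both libraries filled. Col6a1 was lower in the AptCD4-LNT library in all 4, with ratios of 0.645, 0.453, 0.646 and 0.713 (sub-clusters led by Dmkn and Efemp1, by cell-cycle genes, by Gas6 and Reg3g, and by Mmp10 and Crabp1). Col6a2 was also lower in all 4 (0.906, 0.474, 0.705 and 0.818), and Col27a1 (2.20, 1.51, 1.76 and 1.10) and Col16a1 (1.48, 1.20, 1.09 and 1.42) were higher in all 4, though not each interval excluded 1. The Col1a2 ratios in the same order were 1.34, 1.40, 0.991 and 1.64, so the higher level was seen in 3 of the 4. Col12a1 was higher in the same 3, at 2.27, 1.68 and 1.80, against 0.906 in the sub-cluster led by Gas6 and Reg3g. Of the 4, that sub-cluster alone had a Col4a1 ratio above 2, at 506 against 218 CPM (2.32, 1.98 to 2.72), and a Col15a1 ratio of 6.66 (4.70 to 9.67). The sub-clusters held as few as 16 cells of a library.

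Pericyte-like cells wrap small vessels, and their collagen message was the second highest of the classes compared. The summed level was 23302 against 13246 CPM, a ratio of 1.76 (1.70 to 1.82), on 50 and 78 cells. Of 17 chains compared, 14 were at least 1.5-fold higher in the AptCD4-LNT library, against 19.2% of all genes, and 1 was lower, against 13.1%. The median log2 ratio was 0.88, beside 0.07 for all genes. All 3 groups of chains took part. Col1a1 lay at 4917 against 2920 CPM (1.68, 1.57 to 1.81), Col1a2 at 2232 against 1237 CPM (1.81, 1.62 to 2.01) and Col3a1 at 4067 against 2820 CPM (1.44, 1.34 to 1.55).

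The type IV pair followed, with Col4a1 at 2766 against 1372 CPM (2.02, 1.83 to 2.23) and Col4a2 at 1725 against 935 CPM (1.84, 1.63 to 2.09). The type VI chains and Col12a1 had ratios above 2.2. Col6a1 lay at 915 against 378 CPM (2.42, 2.01 to 2.92), Col6a2 at 528 against 211 CPM (2.50, 1.95 to 3.23) and Col6a3 at 2056 against 914 CPM (2.25, 1.99 to 2.54). Col5a2 (1.97), Col5a1 (1.60), Col5a3 (1.57), Col12a1 (2.26), Col15a1 (1.66) and Col18a1 (2.09) were also past the fold with intervals above 1. Col27a1 (2.01, 0.758 to 5.87) was not distinguishable from 1 on 14 and 7 UMIs. Col8a1 was the lower chain, at 217 against 355 CPM (1.64-fold lower, 1.26 to 2.15).

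The pericyte-like fibrillar message was detected in nearly every cell but unevenly. Fibrillar UMIs were found in 50 of 50 and 77 of 78 cells, and the cell with most of them held 11.5% and 6.80%. The 10 cells with most held 58.7% and 48.4%. With every cell weighted equally, the log2 ratio of summed collagen was 0.52 in place of 0.81, which is under 1.5-fold. Leaving out 1 AptCD4-LNT cell with at least 10 fibroblast-marker UMIs left 13 of 17 chains higher (18.4% of all genes) and 1 lower (13.4%), because Col1a1 lay then at 4335 against 2920 CPM (1.48). Other genes of the class moved with it. The 7 pericyte markers summed to 8765 against 4375 CPM, all detected in both libraries. The 7 epithelial markers summed to 563 CPM with Cldn4 at 0, against 1662 CPM with all detected. The 5 neutrophil markers summed to 1420 against 2658 CPM. The 7 fibroblast markers summed to 189 against 85.9 CPM, with Pdgfra and Lum at 0 in the Untreated library. The part of these levels in the collagen ratio was not tested.

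Endothelial-like cells carried the type IV pair at the highest level of any class. Col4a1 lay at 3482 against 2845 CPM (1.22, 1.16 to 1.30) and Col4a2 at 2238 against 2005 CPM (1.12, 1.04 to 1.20). Col18a1, the source of the fragment endostatin, lay at 814 against 608 CPM (1.34, 1.19 to 1.51), and Col15a1 at 572 against 451 CPM (1.27, 1.10 to 1.46). Col13a1, a transmembrane collagen, had most of its message in the class. It had 44 of its AptCD4-LNT UMIs (81.5%) and all 77 of its Untreated UMIs there, at 68.2 and 82.5 CPM. The Col4a1 and Col4a2 starts lie 21 bases apart on opposite strands of chromosome 8, so that their upstream windows fall within each other's transcripts.

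Of 17 chains compared in endothelial-like cells, 9 were higher by at least 1.5-fold, against 9.78% of all genes, and 0 were lower, against 11.4%. These 9 rested largely on 1 barcode. Fibrillar chains summed to 2563 against 130 CPM, a ratio of 19.8 (16.4 to 24), but 1 AptCD4-LNT barcode held 1485 of the 1654 fibrillar UMIs (89.8%). That barcode had 44516 UMIs and carried Dcn (52 UMIs) and Lum (26), which mark fibroblasts, together with Cdh5 (58), Emcn (54) and Pecam1 (36), which mark endothelium. Without it, fibrillar chains summed to 281 against 130 CPM (2.17, 1.71 to 2.76). Then 3 of 11 chains were higher, against 10% of all genes (Col1a1, Col1a2 and Col3a1), and 0 were lower, against 11.7%. The fibrillar level was then below that of the Ptprc-positive cells treated in the same way, 412 and 132 CPM, and none of those 3 chains was above the control in both libraries. The summed collagen ratio was 1.25 (1.20 to 1.30) without it and 1.60 with it. The type IV ratios changed little, to 1.26 for Col4a1 and 1.15 for Col4a2.

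**Figure D3:**
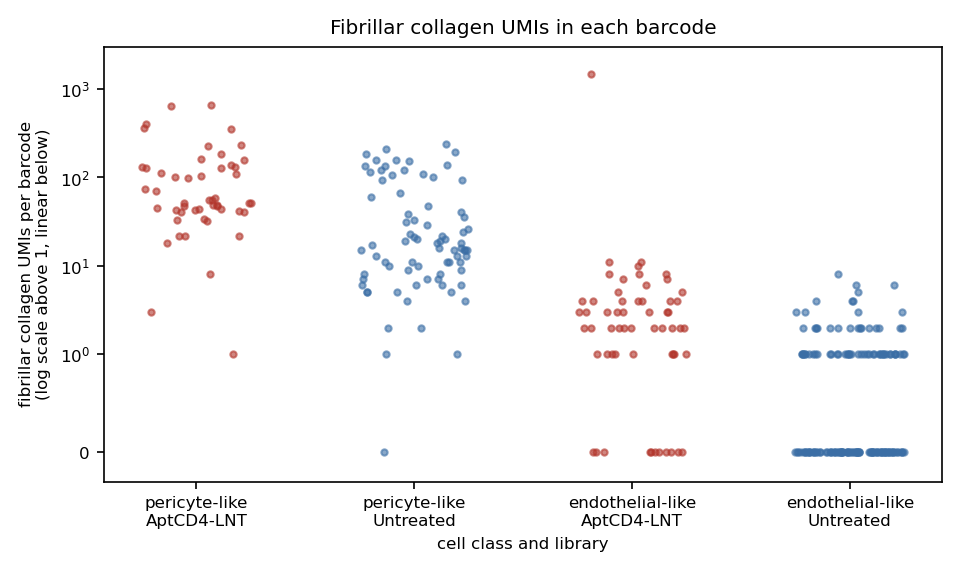
Fibrillar collagen UMIs of each pericyte-like and endothelial-like barcode in the AptCD4-LNT and Untreated libraries (log scale above 1, linear below). The endothelial-like barcode with 1485 fibrillar UMIs stands apart from the others of its class, the next of which held 11.

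Epithelial-like cells, which in a 4T1 tumour include the carcinoma cells, had a low collagen level with a make-up of its own. The summed level was 1100 against 834 CPM, a ratio of 1.32 (1.30 to 1.33). In both libraries 16 of the 44 chains lay at least 3-fold above the Ptprc-positive cells in UMIs per cell. The highest were Col8a1 at 168 and 184 CPM, Col18a1 at 146 and 107 CPM, and Col4a1 at 145 and 137 CPM. Col6a1 lay at 107 and 82.2 CPM, Col7a1 at 73.4 and 55.0 CPM, and Col4a2 at 72.2 and 74.6 CPM. The control levels of Col8a1 were 6.84 and 10.7 CPM and those of Col4a1 8.29 and 10.2 CPM. The other chains above the control were Col16a1 (43.5 and 35.1 CPM), Col5a1 (39.8 and 30.3), Col12a1 (24.9 and 13.4), Col6a2 (21.4 and 16), Col4a5 (13.1 and 8.18), Col5a3 (6.33 and 3.59) and, near or below 1 CPM, Col4a4, Col4a6, Col11a2 and the hemidesmosome collagen Col17a1. Since that rule is per cell and epithelial-like cells were deeper, it favours them. In CPM, Col11a2 lay below the control in the AptCD4-LNT library (0.610 against 1.04), and the other 15 lay above it in both libraries. Against Ptprc-positive neutrophil-like cells of the AptCD4-LNT library, Col5a3 (6.33 against 6.35), Col4a4 (0.639 against 1.19) and Col17a1 (0.568 against 0.794) did not lie above. In the Untreated library those chains did. Col11a2 lay below the neutrophil-like cells in both libraries (0.610 against 1.99 and 0.544 against 0.619).

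Epithelial-like cells had more UMIs than the control cells, with medians of 17532 and 7298 against 1883 and 2190. At 1000 UMIs per cell, Col4a1 was found in 13.4% and 12.5% of epithelial-like cells (81.8% and 57.9% before thinning) and in 0.932% and 0.882% of control cells. Col18a1 was found in 13.5% and 9.65% against 0.446% and 0.764%, and Col7a1 in 7.14% and 5.64% against 0.567% and 0.50%. The type I chains had the opposite order, with Col1a1 in 6.79% and 3.06% of epithelial-like cells (65.7% and 18.4% before thinning) and in 13.1% and 4.12% of control cells. On the CPM scale the epithelial-like levels of Col1a1 were 0.590 and 0.513 times those of the control, those of Col1a2 0.485 and 0.419 times and those of Col3a1 0.543 and 0.397 times. In UMIs per cell they were 3.14 and 1.42 times the control for Col1a1, 2.58 and 1.15 times for Col1a2 and 2.89 and 1.10 times for Col3a1. The Col1a1 share at equal depth thus lay below that of the control in both libraries, whereas its UMIs per cell lay above. The source of the type I message in epithelial-like cells was not tested.

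**Figure D4:**
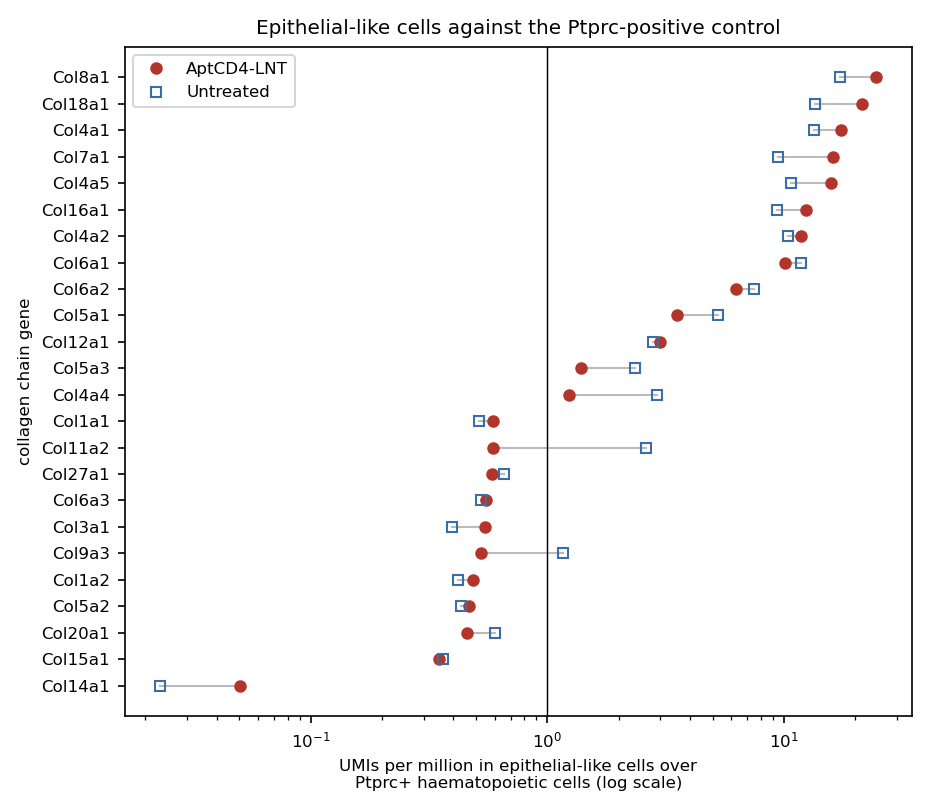
CPM of each collagen chain in epithelial-like cells divided by that in the Ptprc-positive control cells of the same library (log scale), with the line at equal levels. Col8a1 lies at 24.6 and 17.3 times the control, and Col1a1, Col1a2 and Col3a1 lie below the line.

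That split was set beside the difference between the libraries. The control rule uses the same epithelial-like counts as the ratio, and it must hold in both libraries. A chain low in the Untreated library therefore tends to fall among the others, so the split and the ratios are not independent. Of 28 chains compared in epithelial-like cells, 13 were at least 1.5-fold higher in the AptCD4-LNT library, against 9.8% of all genes, and 0 were lower, against 6.68%. Without cells of at least 10 fibroblast-marker UMIs the counts were the same, against 9.84% and 6.66%. Of the 16 chains above the control, 4 were higher, with a median log2 ratio of 0.39. Of the other 12 chains, 9 were higher, with a median of 1.42. Among the latter, Col1a1 had a ratio of 2.68 (2.55 to 2.82), Col1a2 3.58 (3.35 to 3.83) and Col3a1 2.61 (2.50 to 2.72). The control cells had ratios of 2.33, 3.09 and 1.91 for the same chains. Without cells of at least 10 fibroblast-marker UMIs, the control ratios were 2.89, 3.89 and 3.05, and the epithelial-like ratios 2.72, 3.62 and 2.67. The Untreated levels were then 25.3, 13.7 and 36.7 CPM in epithelial-like cells and 37.8, 24.1 and 57.1 CPM in the control. The other chains that did not pass the control rule but were past the fold were Col5a2 (2.01), Col6a3 (2.93), Col27a1 (4.10), Col28a1 (3.20), Col8a2 (2.85) and Col14a1 (2.67). For Col14a1 the control includes macrophage-like cells, which hold most of its UMIs. Against neutrophil-like cells it lay at 0.0662 against 0.0167 and 0.0119 against 0.00278 UMIs per cell, but at 3.51 against 10.3 and 1.31 against 2.47 CPM. For Col27a1 the control had 40 and 13 UMIs, and osteoclast-like cells, which the control includes when Ptprc-positive, had 30 and 9. Against neutrophil-like cells Col27a1 lay at 0.0458 against 0.00257 and 0.00535 against 0.00208 UMIs per cell. In CPM it lay at 2.43 against 1.59 and 0.592 against 1.86.

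The 4 chains both above the control and past the fold were Col12a1 (1.85, 1.72 to 2.0), Col5a3 (1.77, 1.52 to 2.05), Col4a5 (1.60, 1.45 to 1.77) and Col4a6 (1.87, 1.27 to 2.78). Of these, Col12a1 and Col5a3 were also higher in the control (1.74 and 2.99). The abundant chains differed less, with ratios of 0.912 for Col8a1, 1.37 for Col18a1, 1.06 for Col4a1, 0.969 for Col4a2, 1.30 for Col6a1 and 1.33 for Col7a1. Type VI chains were counted in other proportions than in fibroblasts. There were 0.0457 and 0.0203 Col6a3 UMIs per Col6a1 UMI in epithelial-like cells, against 1.41 and 1.01 in fibroblast-like cells.

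Col4a5 and Col4a6, which assemble together in some basement membranes, are shown because they are neighbours whose epithelial-like levels were both higher in the AptCD4-LNT library. Their starts lie 1343 bases apart on opposite strands of chromosome X. The 250 bases before each start (RefSeq, GRCm38.p6) are chrX:141475169-141475418 on the plus strand for Col4a5 and chrX:141474077-141474326 on the minus strand for Col4a6. Capitals mark CCAAT, and GGGCGG or its reverse complement.
Col4a5: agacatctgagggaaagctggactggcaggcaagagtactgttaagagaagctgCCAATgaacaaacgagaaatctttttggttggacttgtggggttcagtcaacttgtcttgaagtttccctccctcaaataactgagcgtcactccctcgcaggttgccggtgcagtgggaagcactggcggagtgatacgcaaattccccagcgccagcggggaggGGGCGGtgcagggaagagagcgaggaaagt
Col4a6: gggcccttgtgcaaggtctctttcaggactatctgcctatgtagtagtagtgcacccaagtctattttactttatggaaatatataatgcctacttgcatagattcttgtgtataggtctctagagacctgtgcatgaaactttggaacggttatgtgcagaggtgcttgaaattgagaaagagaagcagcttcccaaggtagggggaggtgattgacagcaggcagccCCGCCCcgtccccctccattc
Col4a5 held CCAAT 196 bases and GGGCGG 30 bases before its start. Col4a6 held GGGCGG on the strand opposite to the gene, 21 bases before its start. Neither window held TATAAA.

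The chains of the epithelial-like cells also varied among its 7 clusters, and Col4a5, Col8a1, Col6a1, Col6a2 and Col5a3 were each highest in the same cluster in both libraries. Col4a5 was highest in the cluster led by Lgals7 and Mgp, at 23.8 and 24.3 CPM, and lowest in that led by Mmp13 and Cxcl5, at 2.57 and 2.08 CPM. Col8a1 was highest in the cluster led by Mmp13 and Cxcl5, at 284 and 304 CPM. Col6a1 (158 and 228 CPM), Col6a2 (36.7 and 63.2 CPM) and Col5a3 (20.5 and 20.1 CPM) were highest in the cluster led by Krt14. Col1a1 varied little over the clusters, from 64.2 to 73.0 CPM in the AptCD4-LNT library and from 22 to 28 CPM in the Untreated library.

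In the Ptprc-positive control itself, the summed collagen level was 578 against 318 CPM (1.82, 1.75 to 1.89). Of 19 chains compared, 11 were higher by at least 1.5-fold, against 15.6% of all genes, and 1 was lower, against 7.94%. Their median log2 ratio was 0.67, beside 0.11 for all genes. The mix of type I and III chains in neutrophil-like cells was close to that in fibroblast-like cells. Of the Col1a1, Col1a2 and Col3a1 UMIs in Ptprc-positive neutrophil-like cells, 31.0%, 24.1% and 44.9% belonged to each chain in the AptCD4-LNT library, against 31.4%, 24.6% and 44.0% in fibroblast-like cells. In the Untreated library they were 29.1%, 20.5% and 50.4%, against 33.4%, 19.3% and 47.3%. In the same library they were 33.2%, 18% and 48.8% in macrophage-like cells, 35.9%, 14.3% and 49.8% in monocyte-like cells (223 UMIs) and 21.8%, 19.4% and 58.8% in T-like cells, all Ptprc-positive. A single such T-like barcode of the Untreated library held 901 of the control's 2803 fibrillar UMIs (32.1%). Leaving out control cells with at least 10 fibroblast-marker UMIs gave fibrillar levels of 412 against 132 CPM, a ratio of 3.12 (2.96 to 3.30) in place of 2.24. Then too 11 of 19 chains were higher, against 15.7% of all genes, and 1 was lower, against 7.85%.

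Col14a1 and Col27a1 were exceptions among the haematopoietic classes. Col27a1 lay at 79.3 and 44.2 CPM in 24 and 29 osteoclast-like cells, on 30 and 9 UMIs. Col14a1 had 673 and 820 UMIs in the control, of which macrophage-like cells held 635 and 775. There were 1.27 and 2.52 Col14a1 UMIs per Col1a1 UMI in Ptprc-positive macrophage-like cells, against 0.0507 and 0.0450 in fibroblast-like cells and 0.0618 and 0.0396 in Ptprc-positive neutrophil-like cells. The message lay mainly in a pair of macrophage-like clusters, one mostly of each library. In cluster 13 (498 and 99 cells) the Col14a1 level was 148 and 62.8 CPM, with a UMI in 53.0% and 19.2% of cells. In cluster 16 (39 and 1604 cells) it was 91.9 and 99.4 CPM, with a UMI in 15.4% and 33.0% of cells. In the larger neutrophil-like clusters, 11 and 12, the level was 11.6 and 18.1 CPM in the AptCD4-LNT library and 4.07 and 2.99 CPM in the Untreated library. The fibroblast marker Dcn lay at 2.51 to 10.2 CPM in clusters 13 and 16. In a further macrophage-like cluster, 18, Col14a1 lay at 16.3 CPM in the AptCD4-LNT library and had 0 UMIs in 267 Untreated cells, where an exact 95% interval allows up to 1.37% of cells with a UMI.

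**Figure D5:**
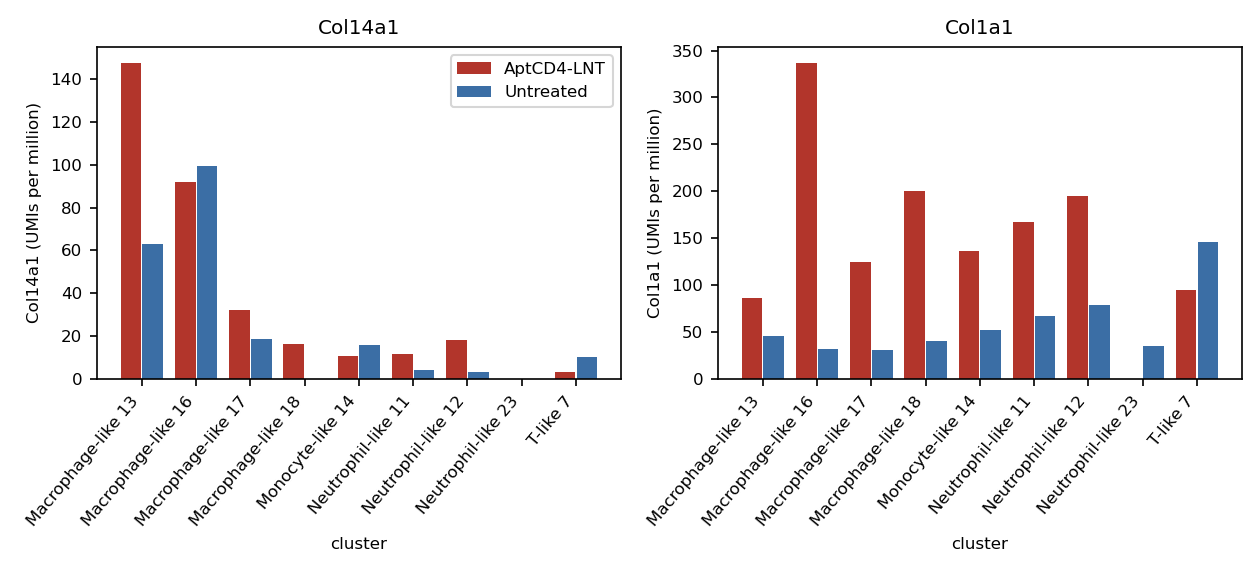
Col14a1 and Col1a1 level (CPM) in each haematopoietic cluster of the AptCD4-LNT and Untreated libraries, for clusters with at least 20 cells of a library. Col14a1 is highest in macrophage-like clusters 13 and 16, from 62.8 to 148 CPM.

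Genes that make and handle collagen were read from 6 lists of 68 genes in all, with the same background shares. For fibroblast-like cells these were 12.1% of all genes higher and 11.3% lower. In fibroblast-like cells, 0 of 13 genes of prolyl and lysyl modification were past the fold either way. P4hb, a subunit of prolyl hydroxylase, lay at 635 against 642 CPM, and Serpinh1, the collagen chaperone HSP47, at 3430 against 2924 CPM. Of 8 chaperone and secretion genes 1 was higher, Creb3l1, a transcription factor of the secretory pathway (328 against 165 CPM, 1.99, 1.81 to 2.19). Of 6 propeptide processing genes 2 were higher, among them Pcolce2, an enhancer of procollagen cleavage (2.62, 1.99 to 3.49). Of 11 cross-linking and fibril assembly genes 1 was higher, Dcn (3200 against 1855 CPM, 1.73, 1.68 to 1.77), and 1 lower, Fmod (2.42-fold). Of 7 receptor genes, the collagen receptor kinase Ddr2 was higher (1.55) and the integrin genes Itga1 and Itgb1 were lower (1.77-fold and 1.57-fold). Of 14 basement membrane partner genes 1 was higher and 3 were lower.

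The adventitial-type state differed from the whole class in the list of prolyl and lysyl modification. Of 13 genes of that list compared there, 4 were higher, against 16% of all genes, while the state's summed collagen level was lower. Among them were P4ha1 at 265 against 116 CPM (2.30, 1.94 to 2.73) and P4ha2 at 304 against 154 CPM (1.97, 1.71 to 2.29). In the myofibroblast state 0 of 13 were past the fold. In pericyte-like cells 3 of 3 propeptide processing genes, 4 of 8 chaperone genes and 7 of 11 basement membrane partner genes were higher. The share of all genes was 19.2%. Of the other lists, 3 of 7 cross-linking and assembly genes, 2 of 5 receptor genes and 1 of 12 modification genes were higher. Among the higher genes, Sparc, a collagen-binding matricellular protein, lay at 6628 against 3864 CPM (1.72, 1.61 to 1.82). Nid1, which links laminin and type IV collagen, lay at 545 against 295 CPM (1.85, 1.48 to 2.31). The cross-linking enzyme Loxl2 lay at 351 against 174 CPM (2.02, 1.52 to 2.70). Fkbp14, Sec23a and Lamb2 were counted as higher with intervals that included 1. Plod2, a lysyl hydroxylase, was 1.92-fold lower. In epithelial-like cells 2 of 14 modification genes, 1 of 8 chaperone genes and 2 of 5 propeptide processing genes were higher. So were 2 of 8 receptor genes and 1 of 12 basement membrane partner genes. The share of all genes was 9.8%. Of 10 cross-linking and assembly genes 7 were higher, among them Lum, Dcn, Bgn and Sparc. In the control 5 of 9 were higher, against 15.6% of all genes, with Lum, Bgn and Sparc among these too. Their levels in epithelial-like cells were 7.69 against 3.26 CPM for Bgn and 199 against 131 CPM for Sparc, and in the control 12 against 5.12 CPM and 52.6 against 32.8 CPM.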

How the data were processed

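Gene counts of 2 droplet single-cell libraries were used, 1 per group. Per the labels and the submitters' processing notes, the authors made the deposited UMI counts with Cell Ranger 7.2.0 on GRCm39, and the values are raw counts. Filters required 200 genes per cell and allowed mitochondrial UMIs up to 20%, and doublets called by Scrublet (scanpy 1.11.5), 226 (2.55%) and 1785 (8.92%) barcodes, were left out. Cells were clustered (2000 variable genes without collagens, 30 principal components, 15 neighbours, resolution 1, 25 clusters) and classes named from marker genes. Fibroblast clusters were sub-clustered into 11. Clusters led by another class's genes stayed unnamed, so class names and sizes are rebuilt, not the authors'.

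Counts were summed per class and library, for classes with at least 50 cells in each. With 1 library per group no p-value was computed. Intervals are exact 95% ones on counts, and UMIs of a mixed sample vary more than this. A self-check on simulated counts with known ratios ran after the ratios were computed.

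Values are given in full for the 3 chains with most UMIs in a class, chains past the fold whose interval excludes 1, chains of 1 trimer and chains above the control in epithelial-like cells. The members, marker lists and gene lists were chosen with earlier results of these data known. Leaving out cells with at least 10 fibroblast-marker UMIs outside the fibroblast-like class, taking 1 fibroblast state alone, keeping all fibroblast sub-clusters and leaving out shared barcodes were added after the data were seen. Promoter windows came from RefSeq (GRCm38.p6).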

Additional observations from a re-analysis of the deposited data

Results flagged for a closer look

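Col8a2, a chain of the short-chain type VIII collagen, was flagged because its direction between the libraries was opposite in different cell classes. Its log2 ratio of AptCD4-LNT to Untreated was 1.51 in epithelial-like cells, on 19 and 8 UMIs, and -1.05 in fibroblast-like cells, on 28 and 18 UMIs. In UMIs per cell its epithelial-like level was 13.9 times that of the Ptprc-positive control in the AptCD4-LNT library (2.21 to 576, on 1 control UMI) and 1.89 times in the Untreated library (0.376 to 18.2, on 2), so it did not pass the rule for both libraries. With 1 library per group, the difference was not tested.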

How the results depend on the processing

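No paired analysis was possible because each group has 1 library. Of 259 recomputed summaries, 155 stayed within their counting interval or within 1.5 times the count, 103 moved beyond it and 1 reversed. Those intervals are narrow, since they cover counting error only. The cause of the moves was not tested. Settings that left fewer than 50 pericyte-like cells in the AptCD4-LNT library gave no pericyte-like value. Below, log2 ratios are of summed collagen, counts are of chains past 1.5-fold, shares are of all collagen UMIs, and control ratios are of fibroblast-like over Ptprc-positive cells, with AptCD4-LNT first. Apart from settings described above, the counts have no share of all genes past the fold beside them. They show how far a count moved and are not read as results about the chains, least of all for chains with few UMIs. The reported values were log2 ratios of 0.12 (fibroblast-like), 0.81 (pericyte-like), 0.68 (endothelial-like) and 0.40 (epithelial-like), and control ratios of 158 and 265. The count of 16 epithelial-like chains above the control stayed within 1.5 times under each setting that gave one. With doublets removed at the expected rate, log2 ratios were 0.14 (fibroblast-like) and 0.34 (endothelial-like). Counts were 3 (endothelial-like higher) and 1 (epithelial-like lower). Shares were 88.6% and 67.8% (fibroblast-like), 0.427% and 1.46% (endothelial-like) and 6.96% and 16.9% (epithelial-like). Control ratios were 171 and 344. With at least 1000 UMIs per cell, the log2 ratio was 0.21 (fibroblast-like). Counts were 2 (pericyte-like lower) and 1 (epithelial-like lower). Shares were 85.9% and 54.5% (fibroblast-like), 1.53% in Untreated (pericyte-like) and 7.13% in AptCD4-LNT (epithelial-like). Control ratios were 164 and 342. The fibroblast-like log2 ratio of Col6a2 reversed to 0.0291. With collagen chains kept among the variable genes, log2 ratios were 0.17 (fibroblast-like) and 0.87 (pericyte-like). The count was 1 (epithelial-like lower). Shares were 84.7% and 54.5% (fibroblast-like), 1.44% in Untreated (pericyte-like) and 16.4% in Untreated (epithelial-like). The Untreated control ratio was 328. With classes set by the markers of each cell, log2 ratios were 0.29 (fibroblast-like), 0.34 (endothelial-like) and 0.38 (epithelial-like). Counts were 8 (fibroblast-like higher), 3 (endothelial-like higher) and 1 (epithelial-like lower). Shares were 89.7% and 74.1% (fibroblast-like), 0.405% and 1.26% (endothelial-like) and 16.4% in Untreated (epithelial-like). Control ratios were 126 and 183. With every cell weighted equally, log2 ratios were 0.0459 (fibroblast-like), 0.52 (pericyte-like) and 0.52 (endothelial-like). The count was 1 (epithelial-like lower). Reversed log2 ratios in fibroblast-like cells were Col3a1 (-0.0686) and Col1a1 (-0.00507). With scaling to the median gene, log2 ratios were 0.10 (fibroblast-like), 0.76 (pericyte-like) and 0.35 (epithelial-like). The count was 1 (epithelial-like lower). With all fibroblast sub-clusters kept, the log2 ratio was 0.40 (fibroblast-like). The count was 8 (fibroblast-like higher). Shares were 90.7% and 79.5% (fibroblast-like). The Untreated control ratio was 214. The fibroblast-like log2 ratio of Col5a2 reversed to 0.0713. With the adventitial-type state only, the log2 ratio was -0.25 (fibroblast-like, reversed). Counts were 9 (fibroblast-like higher) and 2 (fibroblast-like lower). Shares were 58.4% and 36.1% (fibroblast-like). Control ratios were 174 and 375. Reversed log2 ratios in fibroblast-like cells were Col3a1 (-0.46), Col1a1 (-0.21), Col14a1 (-0.41) and Col8a1 (0.0106). With the myofibroblast state only, the log2 ratio was 0.48 (fibroblast-like). The count was 2 (fibroblast-like lower). Shares were 16.8% and 21.9% (fibroblast-like). Control ratios were 139 and 181. Reversed log2 ratios in fibroblast-like cells were Col5a2 (0.21), Col8a2 (0.0801), Col6a2 (0.28), Col6a1 (0.0282) and Col7a1 (0.35). With chains of at least 1 UMI, counts were 9 (fibroblast-like higher), 11 (fibroblast-like lower), 5 (pericyte-like lower), 5 (endothelial-like lower), 20 (epithelial-like higher) and 5 (epithelial-like lower). With no doublets removed, log2 ratios were 1.03 (pericyte-like) and 0.79 (endothelial-like). Counts were 2 (endothelial-like lower) and 1 (epithelial-like lower). Shares were 64.6% and 45.6% (fibroblast-like), 0.873% and 1.17% (pericyte-like), 0.65% and 1.38% (endothelial-like) and 6.76% and 14.5% (epithelial-like). Control ratios were 133 and 186. The fibroblast-like log2 ratio of Col6a2 reversed to 0.0111. With at most 10% mitochondrial UMIs, the log2 ratio was 0.75 (pericyte-like). The count was 1 (epithelial-like lower). Shares were 84.9% in AptCD4-LNT (fibroblast-like), 1.51% in Untreated (pericyte-like) and 7.13% and 16.4% (epithelial-like). The Untreated control ratio was 334. Without cells of 10 or more fibroblast-marker UMIs in other classes, the log2 ratio was 0.32 (endothelial-like). The count was 3 (endothelial-like higher). Shares were 0.426% in AptCD4-LNT (endothelial-like). Control ratios were 166 and 334. With chains of at least 50 UMIs, the count was 3 (endothelial-like higher). With any Ptprc-positive cell as control, control ratios were 19.6 and 39.4. With neutrophil-like cells as control, the AptCD4-LNT control ratio was 132. Depth limits the chains with few UMIs, such as Col6a5, Col28a1, Col8a2 and Col4a5 in fibroblast-like cells, and the pericyte-like and endothelial-like classes rest on 50 and 58 AptCD4-LNT cells.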
